A study of Mus musculus with 8 samples.

Results

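Open chromatin was compared between the type 1 and type 2 conventional dendritic cells (cDC1 and cDC2) of mouse spleen in control animals, whose Hdac1 gene was floxed and which carried no Cre (called WT). The members were the 4 WT libraries of the 8 in the study, 2 of cDC1 and 2 of cDC2, chosen by their titles. Mice of both genotypes had received poly I:C, which induces recombination in animals with Mx1-Cre, and cells were sorted 2 weeks later, so the controls are cells of treated mice and not of untouched ones. Both subsets were sorted as Lin-CD11c+MHCII+CD64- cells, cDC1 as XCR1+CD11b- and cDC2 as XCR1-CD11b+. The other 4 libraries, 2 per subset, came from mice with Mx1-Cre (called KO). They entered the fit, and their summits took part in chaining summits into sites. They were also used to look again at sites whose class had been set by the WT libraries alone. Mx1-Cre is induced by interferon in many cell types and is not specific to dendritic cells. The labels do not say whether libraries of a group came from separate mice. A p-value here therefore speaks of the spread among libraries, which may be technical.

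Conventional dendritic cells sample antigen and present it to T cells. Textbook knowledge assigns cross-presentation to CD8 T cells to cDC1, which depend on the transcription factors IRF8, BATF3 and ID2, and presentation to CD4 T cells to cDC2, which use IRF4, ZEB2, KLF4 and Notch2 signals. ATAC-seq marks open chromatin through the sites at which a transposase can insert adapters, which are mostly promoters and enhancers.

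The values are summits, the points of highest signal within called peaks. The WT cDC1 lists held 76022 and 77585 summits and the WT cDC2 lists 66609 and, in replicate 2, the fewest of all 8 libraries. The mean difference was -12630.5, with p = 0.333 in a two-sided exact permutation test, the smallest p that 2 against 2 allows. To put the libraries on one footing in number, as many summits of highest score were kept in each as the shortest list held. This was 79.6% to 92.7% of the other 3 WT lists. The footing is not one of score, as the lowest kept score was 4.93 and 4.95 in WT cDC1 and 3.56 and 1.31 in WT cDC2. Weaker summits were thus kept in cDC2 than in cDC1. Ranks below count from the highest score of a library, so that a low rank is a strong peak. Read depth is unknown. A gene at 0 summits is one without a kept summit assigned to it, and it can still hold a called peak of lower score that was not kept. A difference can come from the share of open cells as well as from the openness per cell, which bulk libraries cannot tell apart. Of the kept summits, 21.0% and 21.3% in cDC2 lay within 1 kb of either end of a protein-coding gene. The cDC1 libraries were both lower, by 1.13 percentage points on average, again at p = 0.333 in the exact permutation test.

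Promoters that carried a summit in both libraries of one subset and in neither of the other show the contrast at its simplest. The 250 bases upstream of the start site (RefSeq, GRCm38.p6) are printed for 4 genes: Cd8a and Clec9a because they encode surface receptors of splenic cDC1, Klf4 because each subset had its own summit there, and Mmp8 because it was the cDC2-only promoter in the lists with no kept cDC1 summit within 1 kb. Sequences read 5′ to 3′ on the strand of the gene. Capitals mark matches on either strand to any of the 12 short motifs searched, which are named with their positions below.
Cd8a: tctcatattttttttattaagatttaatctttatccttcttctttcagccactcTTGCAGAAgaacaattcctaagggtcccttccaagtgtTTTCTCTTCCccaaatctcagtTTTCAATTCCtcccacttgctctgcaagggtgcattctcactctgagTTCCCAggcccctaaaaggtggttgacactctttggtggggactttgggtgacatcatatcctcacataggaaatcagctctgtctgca
Clec9a: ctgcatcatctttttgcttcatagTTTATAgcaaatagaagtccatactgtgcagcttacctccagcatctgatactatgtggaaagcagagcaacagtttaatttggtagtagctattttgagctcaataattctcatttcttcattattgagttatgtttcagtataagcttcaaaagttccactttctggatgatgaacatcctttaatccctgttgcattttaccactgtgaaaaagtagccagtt
Klf4: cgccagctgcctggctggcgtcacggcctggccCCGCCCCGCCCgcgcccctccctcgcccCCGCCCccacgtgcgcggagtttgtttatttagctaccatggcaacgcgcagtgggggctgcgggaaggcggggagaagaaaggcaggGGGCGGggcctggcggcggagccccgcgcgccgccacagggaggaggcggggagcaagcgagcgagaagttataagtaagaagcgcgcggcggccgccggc
Mmp8: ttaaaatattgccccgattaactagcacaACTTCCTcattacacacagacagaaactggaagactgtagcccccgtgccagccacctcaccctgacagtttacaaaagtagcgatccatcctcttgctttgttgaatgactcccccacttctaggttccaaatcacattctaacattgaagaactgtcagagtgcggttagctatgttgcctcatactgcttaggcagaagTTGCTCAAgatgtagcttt

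Cd8a encodes the CD8 alpha chain that splenic cDC1 carry on their surface. Its promoter (chr6:71373177-71373426, plus strand, 42.8% G and C, 0 CpG) had a summit at -61 and 27 bases from the start site in the 2 WT cDC1 libraries, with ranks of 15126 and 16986. Both KO cDC1 libraries had one too, with ranks of 8754 and 7500, and none of the 4 cDC2 libraries did. The window held 2 matches to the ETS-IRF composite (GGAA and GAAA spaced by 2 bases), at -158 to -149 and -136 to -127, both on the minus strand. It also held a C/EBP match (TTGCNNAA) at -196 to -189 and an RBPJ match (TGGGAA) at -89 to -84. The composite was present in 2.21% of the 17492 promoters in the table. The Clec9a promoter (chr6:129408612-129408861, plus strand) belongs to the dead-cell receptor of cDC1. Its summits lay at -69 and -40 bases, with ranks of 29268 and 24492 in WT cDC1, and again appeared in both KO cDC1 libraries and in no cDC2 library. The only match was a TATA box (TATAAA), at -226 to -221 on the minus strand.

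At Klf4, a transcription factor used by cDC2, both subsets had a summit near the start site, at different positions. In both WT cDC1 libraries the summit was 157 bases upstream of the start site, inside the printed window (chr4:55532476-55532725, minus strand, 74.0% G and C), with ranks of 7189 and 8517. Both WT cDC2 libraries had their summit in a separate site at 55532960 to 55533034, with ranks of 8355 and 4647, about 0.522 kb upstream of the start. The KO libraries split in the same way, with ranks of 7544 and 7311 in cDC1 at the near site and of 8322 and 6048 in cDC2 at the far one. The nearest WT cDC2 summit was 328 bases from the cDC1 site, and the summit count of the gene was the same: Klf4 had 7 and 6 summits in cDC1 and 7 and 6 in cDC2. The window held 4 matches to the GC box GGGCGG.

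Mmp8 encodes neutrophil collagenase. Its promoter (chr9:7558179-7558428, plus strand) had summits at -48 and -42 bases in WT cDC2, with ranks of 23100 and 17683, and in both KO cDC2 libraries, and no kept one in cDC1. Each WT cDC1 library did have a summit assigned to Mmp8 among those not kept, and its position is not given here. A PU.1 match (AGGAAGT) stood at -221 to -215 and a C/EBP match at -19 to -12.

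Over whole genes, the subsets differed at 522 of 14068 genes tested in WT (3.71%), among them Cd8a on the cDC1 side and Cd2 on the cDC2 side. Of these, 245 (1.74% of genes tested) had more summits in cDC2 and 277 (1.97%) fewer, by limma on log2(summits + 1) at a Benjamini-Hochberg adjusted p under 0.05. A further measure, that the 2 libraries of one subset both lie above those of the other, held for 2030 genes (14.4%) higher in cDC2 and 2169 (15.4%) lower. With all deposited summits, which keeps the longer cDC1 lists at full length, the split was 77 higher and 463 lower (limma).

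Scn11a, a voltage-gated sodium channel gene of sensory neurons (chromosome 9, 119753763 to 119825456), had 0 and 0 summits in WT cDC1 and 9 and 9 in WT cDC2. The log2 difference was 3.32 (SE 0.303, limma adjusted p = 4.28e-05). It had 7 cDC2-only sites, at 88.3, 82.0, 81.3 and 21.1 kb downstream and at -18.3, -32.3 and -33.4 kb from its start site, and no WT library had a summit within 500 bases of that start. With all deposited summits each WT cDC1 library had 1 summit at Scn11a. Cd2, an adhesion receptor of T and NK cells, had 0 and 0 summits in cDC1 and 4 and 7 in cDC2 (2.66, SE 0.29, limma adjusted p = 0.000196), with 4 cDC2-only sites. Tmem132c, a transmembrane protein gene, had 2 and 1 summits in cDC1 and 12 and 14 in cDC2 (2.51, SE 0.263, limma adjusted p = 0.000137). Its 11 cDC2-only sites ran from 6.3 kb before the start to 331 kb beyond it. In these 3 genes the cDC1 libraries held 0 to 2 summits and the cDC2 libraries 4 to 14.

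The remaining genes among the 12 of largest difference in this direction were Esrrg, an orphan nuclear receptor gene (0 and 0 against 4 and 6 summits), Fstl5, Chst2, Crispld2, Glt1d1, Htra1, Mmp8, Dnase2b and 4930503B20Rik. Lack of overlap was part of the rule that chose the 12 genes. Mmp8 had 0 and 0 summits in cDC1 and 3 and 4 in cDC2 (2.16, SE 0.315, limma adjusted p = 0.00153). It lost the call with all deposited summits (1.16, limma adjusted p = 0.059), where each cDC1 library had 1 summit. At Crispld2 the log2 difference was 0.5 with all deposited summits and with the stricter limit, which kept the top 50% of these summits (limma adjusted p = 0.534 and 0.377). Chst2 and Htra1 also lost the call with all deposited summits. Without replicate 1 of WT cDC1 the difference at Dnase2b was 1.29 in place of 2.08.

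On the cDC1 side, Chst9, a sulfotransferase gene, had 9 and 7 summits in cDC1 and 0 and 0 in cDC2, which gave -3.16 on the log2 scale (SE 0.29, limma adjusted p = 4.28e-05). Sh3gl3, which encodes an endophilin of membrane traffic, had 7 and 7 in cDC1 and 0 and 0 in cDC2 (-3.00, SE 0.243, limma adjusted p = 2.17e-05). Its 7 cDC1-only sites lay between 0.004 and 65.9 kb downstream of the start site, and the one at the start, with ranks of 20093 and 18134, also had weak summits in both KO cDC2 libraries (37639 and 44686). Cd8a (chromosome 6, 71373427 to 71379171) had 6 and 7 summits in cDC1 and 0 and 0 in cDC2 (-2.90, SE 0.305, limma adjusted p = 0.000137). Even among all deposited summits, 8 and 9 in cDC1, it stayed at 0 in both cDC2 libraries. Other genes of the 12 were Luzp2, Itgb6, the epithelial integrin beta 6 gene (6 and 3 against 0 and 0), Galnt18, Ankrd31, Mrgprd, 1810020O05Rik, Dcdc5, Pcsk5, a proprotein convertase gene (4 and 3 against 0 and 0), and Apcs. At Dcdc5, without replicate 1 of WT cDC2 the difference was -1.48 in place of -2.27.

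**Figure D1:**
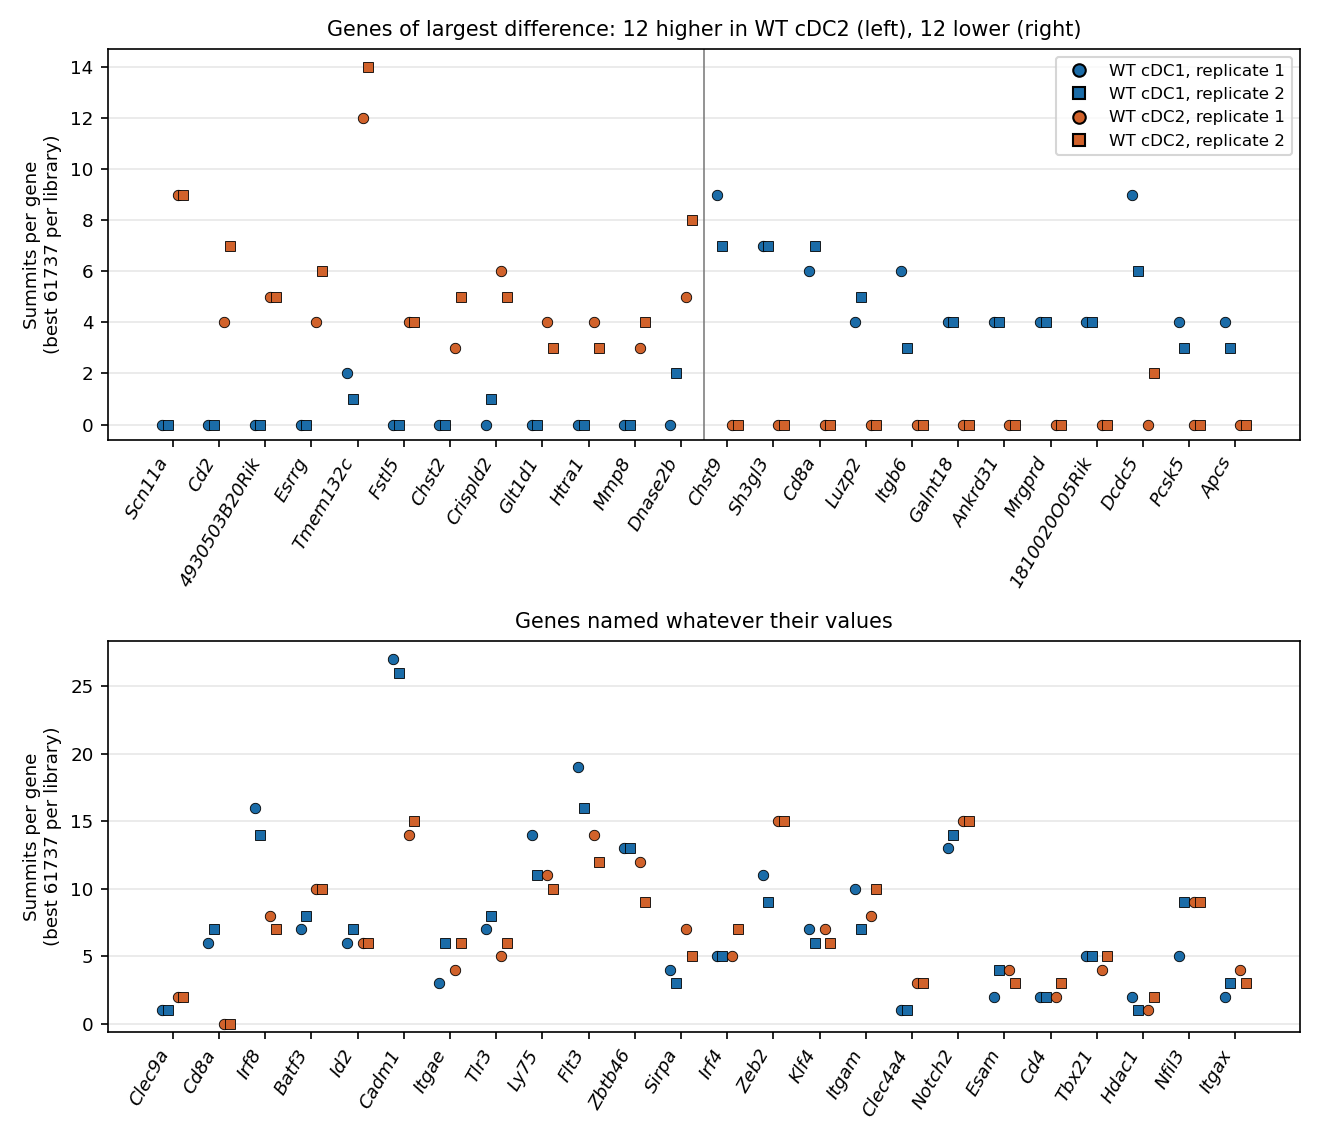
Summits per gene (vertical axis) in each WT library, blue for cDC1 and orange for cDC2, circles for replicate 1 and squares for replicate 2. The upper panel holds the 12 genes of largest difference in each direction, of which Scn11a had 9 and 9 summits in cDC2 and Chst9 had 9 and 7 in cDC1, and the lower panel holds genes named whatever their values, where the subsets overlap at many.

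Genes known for cDC1 had fewer summits in cDC2 at 4 of 29 tested list members, and 0 had more, beside 1.97% and 1.74% of all genes tested. The list's median log2 difference was -0.29, beside 0 over all genes tested, and in 13 members both cDC1 libraries lay above both cDC2 libraries, against 2 the other way (15.4% and 14.4% of all genes tested). All gene lists were chosen with earlier results of these data known. Their counts, here and for sites and start sites below, are therefore descriptions and not independent support. Beside Cd8a, the members of the cDC1 list called were Fzd1, Gcsam and Irf8. Fzd1, a Wnt receptor gene, had 4 and 5 summits in cDC1 and 0 and 1 in cDC2 (-1.95, SE 0.304, limma adjusted p = 0.0024). It lost the call when summits were limited to 10 kb from a gene (-0.79, adjusted p = 0.26), and its 3 cDC1-only sites lay between 11.9 and 12.6 kb outside the gene. Gcsam, a signalling adaptor gene of germinal centre cells, had 5 and 6 in cDC1 and 3 and 0 in cDC2 (-1.70, SE 0.436, limma adjusted p = 0.041). Its value rested on replicate 2 of WT cDC2, without which it was -0.70 (limma adjusted p = 0.345); without replicate 1 of WT cDC2 it was -2.70.

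Irf8, the transcription factor required for cDC1 (chromosome 8, 120736358 to 120756694), had 16 and 14 summits in WT cDC1 and 8 and 7 in WT cDC2. The log2 difference of -0.91 (SE 0.243) stood at the threshold (limma adjusted p = 0.0491). It kept its direction and missed the threshold without any one of the 4 WT libraries, with limma adjusted p of 0.25 and 0.0849 without replicates 1 and 2 of WT cDC1 and of 0.0716 and 0.201 without those of WT cDC2. It also missed it with only the 4 WT libraries fitted. Cadm1, an adhesion molecule of cDC1, showed the same separation and was not called: 27 and 26 summits in cDC1, 14 and 15 in cDC2 (-0.83, SE 0.245, limma adjusted p = 0.077). It passed with all deposited summits (-1.17, limma adjusted p = 0.0292).

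Other cDC1 genes were not called, and at Batf3 and Clec9a both cDC2 libraries lay above both cDC1 libraries. Batf3 had 7 and 8 summits in cDC1 and 10 and 10 in cDC2 (0.37, limma adjusted p = 0.486), and passed without the added rounding variance (limma adjusted p = 0.043). Id2 had 6 and 7 against 6 and 6, and Itgae, the CD103 gene, 3 and 6 against 4 and 6. Clec9a had 1 and 1 against 2 and 2 (0.58, limma adjusted p = 0.268), and its cDC1-only promoter summit lies inside the span of Clec12b and was counted there. With all deposited summits the Clec9a difference was -0.21. Xcr1, which defined the sort, had no summit assigned to it in any library and was not tested.

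Among genes known for cDC2, 1 of 25 tested members had more summits in cDC2 and 0 had fewer, beside 1.74% and 1.97% of all genes tested, with a median log2 difference of 0.21. In 9 members both cDC2 libraries lay above both cDC1 libraries, against 1 the other way (14.4% and 15.4% of all genes tested). The member called was Dtx1, a Notch pathway ubiquitin ligase gene, with 1 and 2 summits in cDC1 and 4 and 5 in cDC2 (1.16, SE 0.278, limma adjusted p = 0.0306). Its call was lost with all deposited summits, with a pseudocount of 0.5 and with genes of few summits left in the fit. Without replicate 1 of WT cDC1 it was 0.87 (limma adjusted p = 0.194), and without replicate 2 of WT cDC2 1.03 (limma adjusted p = 0.0777). Clec4a4, the DCIR2 lectin gene of cDC2, had 1 and 1 against 3 and 3 (1.00, limma adjusted p = 0.0888). Zeb2 had 11 and 9 against 15 and 15 (0.55, limma adjusted p = 0.273) and Sirpa, the CD172a gene, 4 and 3 against 7 and 5 (0.63, limma adjusted p = 0.226). Notch2 had 13 and 14 against 15 and 15. In these 4 genes the subsets did not overlap, and none was called. Irf4 had 5 and 5 against 5 and 7 and Itgam, which encodes the CD11b of the sort, 10 and 7 against 8 and 10. Values for Hdac1 itself were 2 and 1 against 1 and 2.

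**Figure D2:**
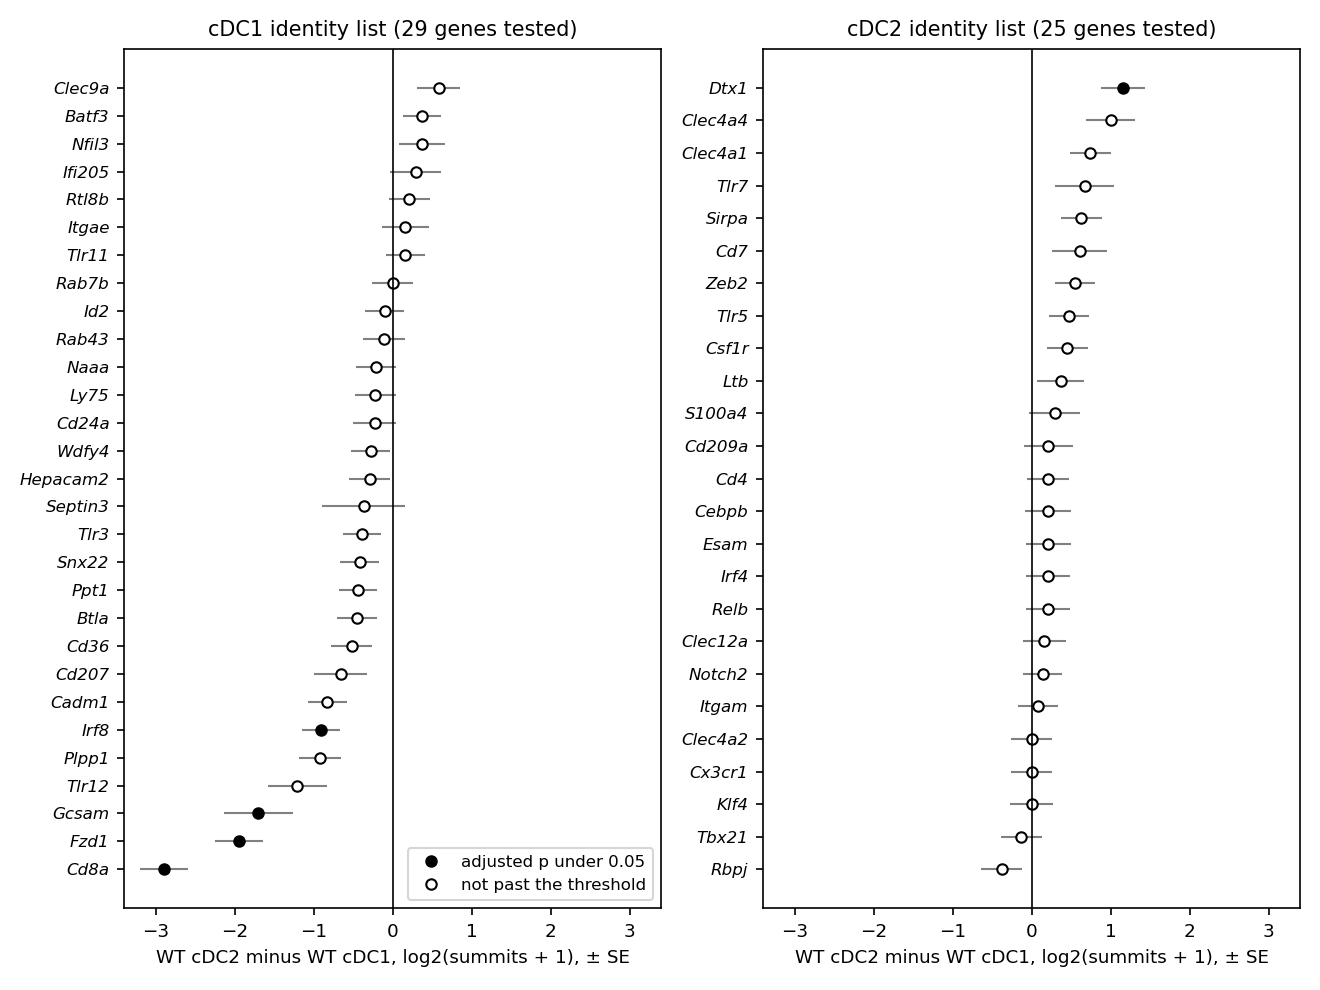
Log2 difference in summits + 1 between WT cDC2 and WT cDC1 (horizontal axis, ± SE from limma) for the tested genes of the cDC1 list (left, 29) and the cDC2 list (right, 25). Filled points passed the threshold: Cd8a, Fzd1, Gcsam and Irf8 lie left of 0 and Dtx1 lies right of it.

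Cytokine and chemokine genes had fewer summits in cDC2 at 2 of 28 tested members and more at 0, beside 1.97% and 1.74% of all genes tested, with a list median of -0.29. Ccl17, a chemokine gene of migratory dendritic cells, had 5 and 5 summits in cDC1 and 2 and 1 in cDC2 (-1.29, SE 0.304, limma adjusted p = 0.0279). Il6 had 9 and 8 against 4 and 3 (-1.08, SE 0.258, limma adjusted p = 0.0298). Both lost the call without replicate 2 of WT cDC2 (limma adjusted p = 0.0793 and 0.112), and Il6 also without replicate 1 of WT cDC1 (0.0917). The stricter limit on ranks gave -0.58 at Ccl17 and -0.71 at Il6, neither of which passed. Ccl17 also lost the call with all deposited summits. Both genes lost it with a pseudocount of 0.5 and with genes of few summits left in the fit. Il10 had 6 and 9 against 3 and 4 and Il12b, the IL-12 p40 gene, 10 and 10 against 7 and 6, and neither was called. In the list of adhesion genes (30 tested) 1 was called higher in cDC2, Cd2, and 1 lower, Crtam, beside 1.74% and 1.97% of all genes tested. Crtam had 3 and 2 summits against 0 and 0 (-1.79, SE 0.272, limma adjusted p = 0.00204). Stab1, a scavenger receptor gene in the list on uptake of dying cells, had 0 and 0 against 2 and 2 (1.58, SE 0.273, limma adjusted p = 0.00448). It lost the call with all deposited summits (1.08, limma adjusted p = 0.0743). Without the added rounding variance the calls of Gcsam, Fzd1, Dtx1, Ccl17, Il6, Mmp8, Crispld2, Dnase2b, Dcdc5, Itgb6, 4930503B20Rik and 1810020O05Rik were lost as well.

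No member was called among 29 tested genes of toll-like and innate sensing, 23 of cross-presentation and class I, 21 of the C-type lectins, 29 receptors for chemokines and cytokines, 18 of MHC class II and pan-cDC genes, 18 of costimulation and maturation, 32 of histone deacetylases and HDAC1 complexes or 14 housekeeping genes. Of 41 transcription factors of dendritic cells only Irf8 was called, and of 27 tested Notch pathway genes only Dtx1. Over all genes tested 3.71% were called in either direction, and lists of these sizes can hold 1 call or none at that share. In the cross-presentation list 5 of 23 members were higher in cDC1 without overlap and 0 were lower, beside 15.4% and 14.4% of all genes tested. This lean was not particular to that list. The counts were 3 of 14 and 0 for housekeeping, 4 of 18 and 0 for costimulation and maturation, and 11 of 29 and 2 for the receptors. Innate sensing (4 of 29 and 6) and the C-type lectins (2 of 21 and 5) leaned the other way.

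Summed summits of the marker lists of other cell types overlapped between the subsets in 3 lists and not in 4, and their part in the results above was not tested. Each sum covers all annotated genes of a list, tested or not. The T cell list (17 genes, 16 tested) summed to 45 and 45 in cDC1 and 47 and 43 in cDC2. The B cell list (11, 6 tested) summed to 28 and 30 against 33 and 29. Sums were 26 and 25 against 25 and 29 for the NK cell list (12, 9 tested). They were 15 and 18 against 20 and 19 for the granulocyte list (11, 6 tested). The plasmacytoid list (17, 15 tested) summed to 82 and 88 against 96 and 92. For the monocyte and macrophage list (20, 18 tested) the sums were 73 and 74 against 70 and 64. For the erythroid and megakaryocyte list (10, 6 tested) they were 12 and 12 against 11 and 10. Mmp8 was the only member of these 7 lists that was called, beside 3.71% of all genes tested called in either direction. Most members of each list had a summit in at least 1 WT library. Those at 0 in all 4 were 1 of 17 listed T cell genes (Cd3g), 2 of 12 NK cell genes (Gzma and Nkg7), 3 of 11 granulocyte genes (Mpo, Elane and Camp), 2 of 10 erythroid and megakaryocyte genes (Hba-a1 and Hbb-bs), 2 of 17 plasmacytoid genes, and 0 of 11 B cell and 0 of 20 monocyte and macrophage genes. Cd79a was at 0 in both cDC1 libraries and at 1 in each cDC2 library. Of the start sites in the promoter table, 9 of 11 T cell, 6 of 8 B cell, 9 of 11 NK cell, 7 of 9 granulocyte and 6 of 9 erythroid and megakaryocyte genes had no summit within 500 bases in any WT library. Of the plasmacytoid genes 4 of 13 and of the monocyte and macrophage genes 4 of 14 had none, and 8 in each list had one in all 4 libraries.

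Single sites were also sorted by the WT libraries in which they had a summit. Of 112443 sites, made by chaining summits of all 8 libraries within 250 bp, 10123 (9.0%) had a summit in both WT cDC1 libraries and in neither WT cDC2 library. The reverse held for 7817 (6.95%), and 34730 (30.9%) were found in all 4. At 463 cDC1-only sites (4.57%) and at 2606 cDC2-only sites (33.3%) the other subset had a summit among the lower-ranked ones that were not kept. With all deposited summits the counts were 14301 cDC1-only and 5707 cDC2-only. A summit of the other subset within 1 kb was found at 1256 (12.4%) and 1434 (18.3%).

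Subset-only sites lay near promoters less often and had weaker ranks than shared ones. A shared site had to be among the kept summits of every WT library, so the difference in rank is partly set by the rule. Sites found in other combinations of WT libraries had median ranks of 46667.5 to 47840, and 9.84% of them lay within 1 kb of a start site. Only 3.5% of cDC1-only and 6.86% of cDC2-only sites lay within 1 kb of a start site, against 25.3% of shared sites. The median distance was 35.2 kb and 36.0 kb against 17.8 kb. Within the best 25% of a library's kept summits were 5.89% and 5.71% of the cDC1-only sites and 3.82% and 4.29% of the cDC2-only sites, but 40.7% to 41.9% of the shared ones. The median rank of a cDC1-only site was 37871 and 38146 in the 2 cDC1 libraries, and that of a cDC2-only site 41507 and 40184 in the 2 cDC2 libraries. More than 50 kb from any protein-coding gene were 14.3% and 13.9%, against 9.02% of shared sites.

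The subset-only sites of WT reappeared mostly in the same subset of the KO mice. Of the cDC1-only sites, 74.4% and 75.2% had a summit in the 2 KO cDC1 libraries and 12.2% and 14.6% in the 2 KO cDC2 libraries. Of the cDC2-only sites, 73.8% and 71.0% had one in KO cDC2 and 21.2% and 22.7% in KO cDC1. The differences of 61.4 and 50.4 percentage points were without overlap between the subsets, with the smallest p that 2 against 2 allows (two-sided exact permutation test, p = 0.333 for each). Shared sites were found in 94.4% to 95.7% of cases in every KO library. The strict pattern, both KO libraries of the same subset and neither of the other, held for 4865 cDC1-only sites (48.1%) and 2719 cDC2-only sites (34.8%), and the opposite pattern for 40 and 32. By the gene-level fit, 0 of 14068 genes had a subset difference that differed between WT and KO (limma, 537 at an unadjusted p under 0.05; without the added rounding variance 299 were called).

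**Figure D3:**
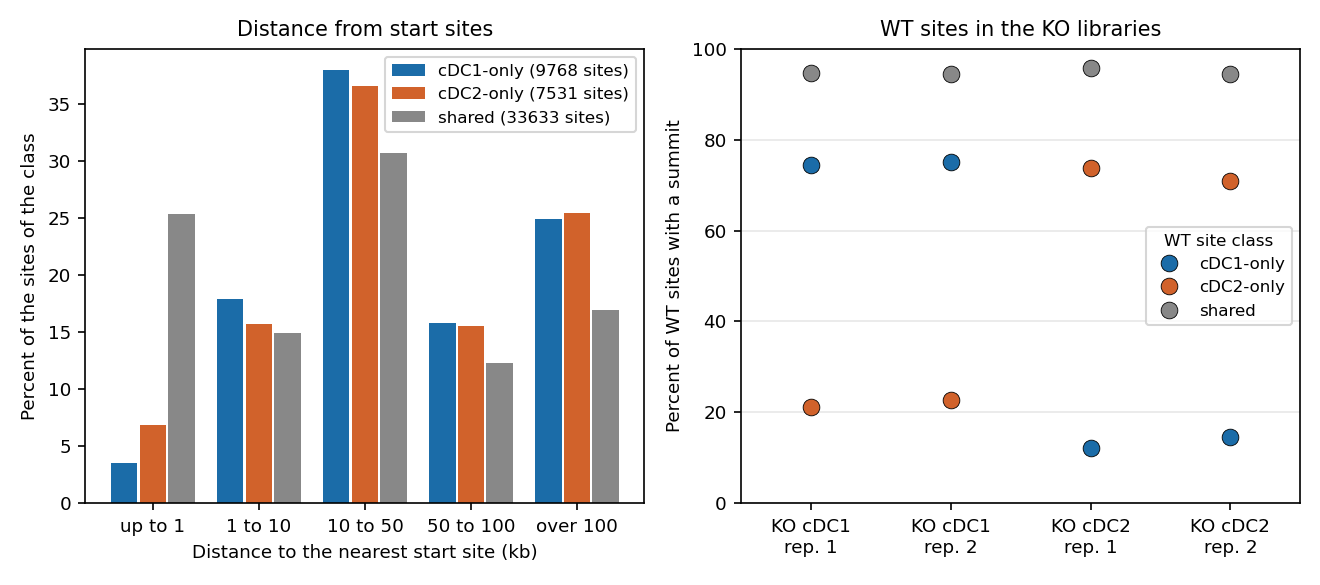
Left, the percent of WT sites of each class (vertical axis) by distance to the nearest RefSeq start site in kb, with 25.3% of shared sites and 3.5% of cDC1-only sites within 1 kb. Right, the percent of the WT sites of each class with a summit in each of the 4 KO libraries, between 71.0% and 75.2% in the same subset and between 12.2% and 22.7% in the other.

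Among the subset-only sites at genes of cDC1 identity, most were cDC1-only. The 30 genes of the list held 53 cDC1-only and 12 cDC2-only sites (81.5% cDC1-only), against 56.3% over all genes, and 40 of the 53 were found in both KO cDC1 libraries. The 28 genes of cDC2 identity held 16 and 29 (35.6%), and 21 of the 29 were found in both KO cDC2 libraries. Cytokine and chemokine genes held 26 and 8 (76.5%), and transcription factors of dendritic cells 58 and 57 (50.4%). Small lists of other kinds leaned to either side. T cell genes held 10 and 4 and housekeeping genes 6 and 1. Plasmacytoid genes held 7 and 11, granulocyte genes 2 and 4, NK cell genes 4 and 5 and C-type lectins 10 and 13. Genes with most cDC1-only sites were P3h2, a collagen prolyl hydroxylase gene (14, span 147 kb), Nsmce2 (14, 227 kb), Dlg2 (13, 1970 kb), Plcb4, a phospholipase C gene (12, 356 kb), Sgms1 (11, 267 kb) and Vps13b (11, 560 kb). P3h2 had 20 and 19 summits in cDC1 and 4 and 6 in cDC2 (-1.79, limma adjusted p = 0.00153). Plcb4 had 27 and 25 against 9 and 13 (-1.19, limma adjusted p = 0.0193), and lost the call without replicate 1 of WT cDC2 (limma adjusted p = 0.0829). Most cDC2-only sites were at Pde4d, a cAMP phosphodiesterase gene (13, 1300 kb), Tmem132c (11, 324 kb), Arid1b (9, 353 kb), Foxp1 (9, 597 kb), Tenm4 (9, 740 kb) and Ank (8, 128 kb). Pde4d, Arid1b and Foxp1 also held 6, 6 and 7 cDC1-only sites, and their summit counts were not called different.

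At Irf8 the separation was by single elements. Its promoter site was shared, with ranks of 5352 and 5030 in WT cDC1 and 7816 and 4776 in WT cDC2. A site 32.4 kb downstream of the start (chromosome 8, 120768702 to 120768853) was among the strongest of WT cDC1, with ranks of 5027 and 2955. It had a rank of 51855 in replicate 1 of WT cDC2 and no summit in replicate 2. In the KO libraries it had ranks of 3145 and 4829 in cDC1 and of 42643 and 44247 in cDC2. Because of the weak summit in replicate 1 of WT cDC2 it does not count as cDC1-only. Irf8 held 6 sites that do, at -24.9, 14.5, 23.7, 38.0, 38.4 and 42.9 kb, all weaker than that one, and 0 cDC2-only sites. At -24.9, 14.5 and 23.7 kb the weaker WT cDC1 ranks were 59724, 61679 and 61429, near the limit of kept summits. Both KO cDC1 libraries had a summit at 23.7, 38.4 and 42.9 kb, a single one had it at -24.9 and 14.5 kb, and neither at 38.0 kb. At 23.7 kb replicate 1 of KO cDC2 also had a summit (rank 57733). Sites at 41.0 and 56.5 kb were shared, with ranks of 36578 and 16105 in cDC1 and of 17365 and 40922 in cDC2 at the former.

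Cd8a held 6 cDC1-only sites, at -13.5, -4.44, -0.019, 7.79, 8.45 and 9.05 kb, and no summit of a WT cDC2 library. At Zeb2, which represses cDC1 fate, 7 sites were cDC2-only and 1 was cDC1-only although the gene was not called. The strongest of the 7 in both WT cDC2 libraries lay 27.8 kb downstream of the start, with ranks of 34677 and 28269, and also had a summit in both KO cDC1 libraries. At Flt3, the receptor for the growth factor of dendritic cells, 4 sites were cDC1-only and 2 cDC2-only, and the one at -5.82 kb had ranks of 12382 and 11804 in WT cDC1 and none in any cDC2 library. Batf3 held a cDC1-only site 1.98 kb downstream of its start (ranks 18701 and 22368), also in both KO cDC1 libraries and in no KO cDC2 library, and a cDC2-only site at 32.9 kb (ranks 46350 and 40453). A cDC2-only site at Dtx1, 14.6 kb inside the gene, had ranks of 5646 and 13837 and was found in both KO cDC2 libraries and neither KO cDC1 library.

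**Figure D4:**
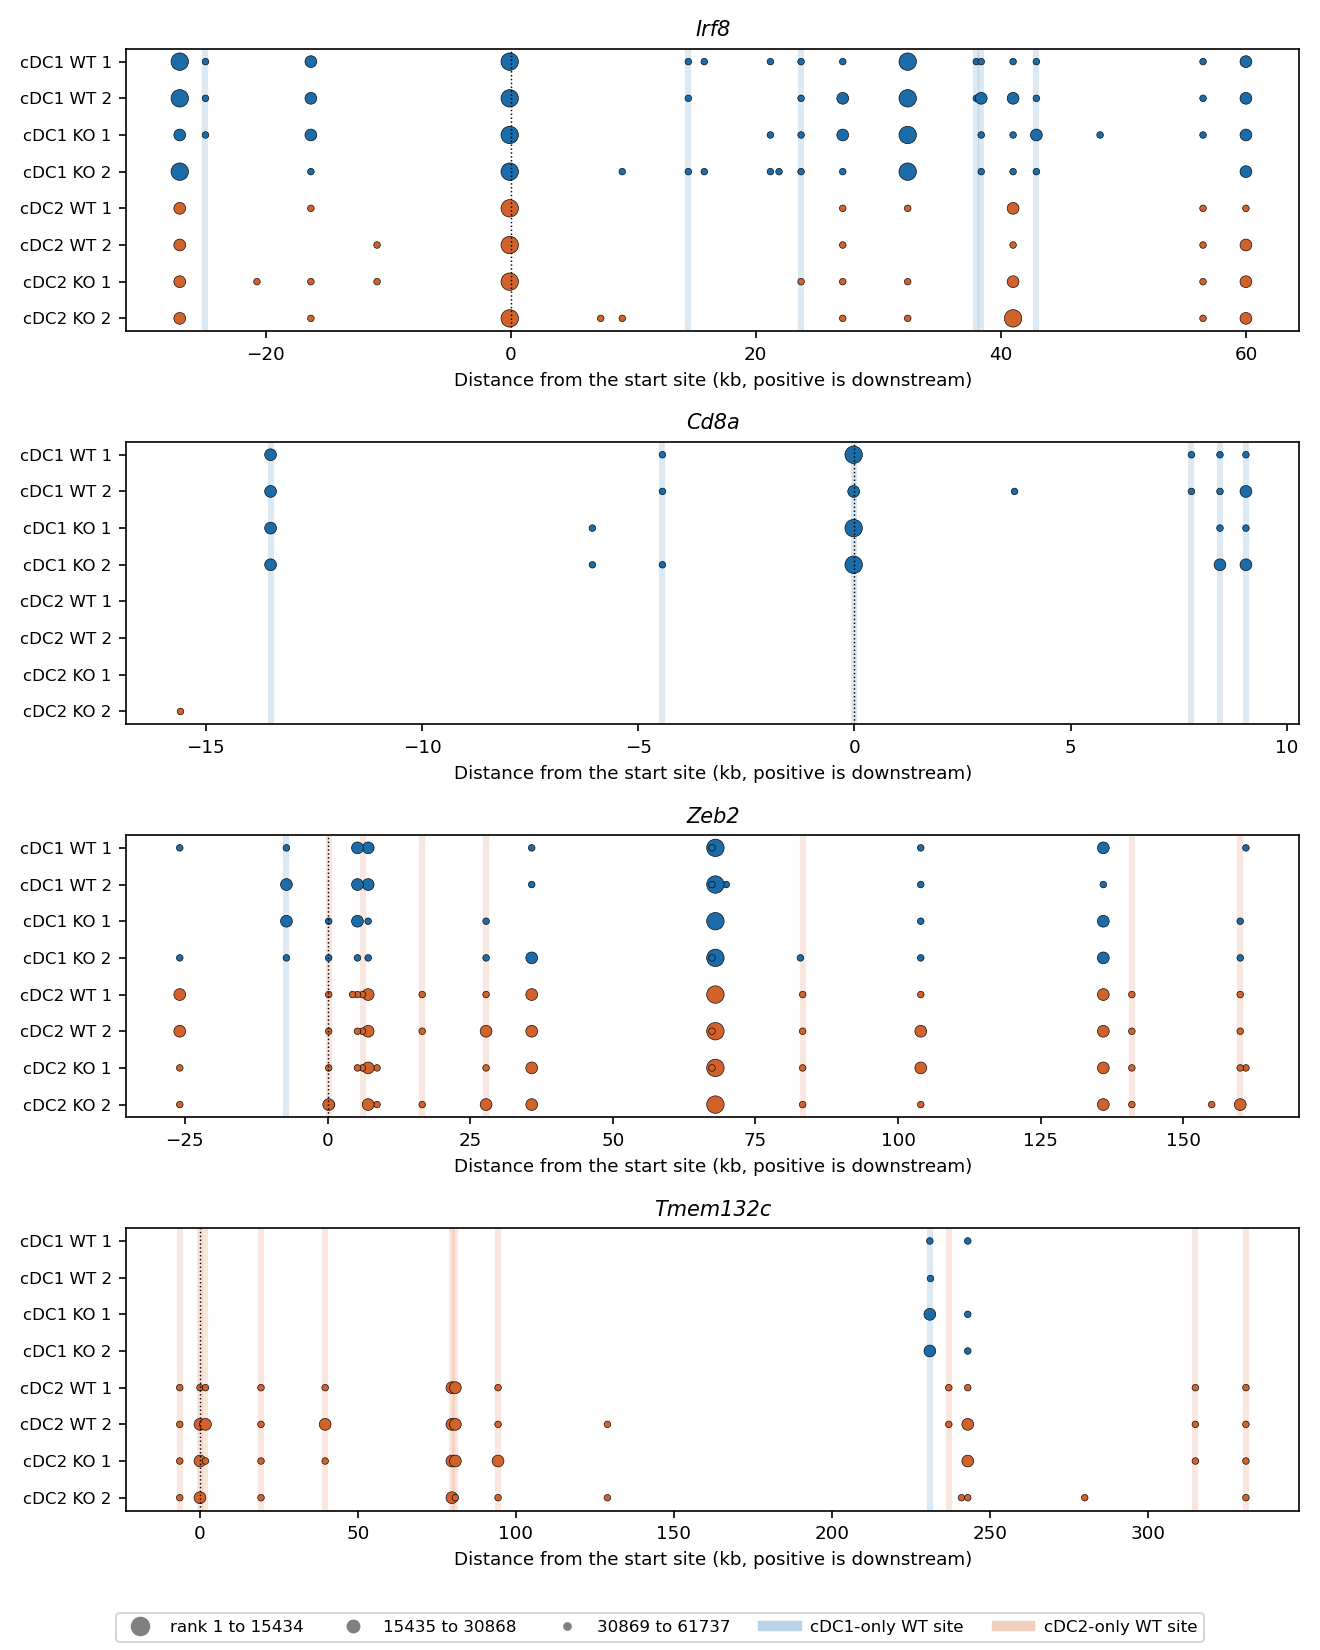
Summits of each of the 8 libraries (rows, blue for cDC1 and orange for cDC2) by distance from the start site in kb at Irf8, Cd8a, Zeb2 and Tmem132c, with larger points for stronger ranks and bands at WT subset-only sites. At Irf8 the site at 32.4 kb has large points in the 4 cDC1 rows and small ones or none in the cDC2 rows.

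Start sites of the 17492 protein-coding genes with an entry in the RefSeq promoter table (79.9%) were mostly open or closed in both subsets. Within 500 bases, 8446 genes (48.3%) had a summit in all 4 WT libraries and 7528 (43.0%) in none. Start sites were open in cDC1 only at 129 genes (0.737%) and in cDC2 only at 194 (1.11%). The list of cDC1 identity held 5 of the former among its 24 genes with an entry and 0 of the latter: Cd8a, Clec9a, Gcsam, Cd207, which encodes langerin, and Cd36, a scavenger receptor gene. The cDC2 identity list held 0 of either among 18. Of 22 cytokine and chemokine genes, Il12b, Il1a, Ccl17 and Ccl6 were open in cDC1 only. Open in cDC2 only were Itgax, the CD11c gene, Itgb7, Mmp8, Tlr1, Clec4d, Dll1 and Cd48. The start site of Itgax had a cDC1 summit 392 bases from the cDC2 one. The neighbouring site had ranks of 21806 and 22157 in WT cDC1 and of 18183 in replicate 1 of WT cDC2. In KO the cDC2-only site had a summit in replicate 1 of cDC2 (rank 20175) and in replicate 2 of cDC1 (rank 36902), and in no other KO library. Itgb7 and Tlr1 had a WT cDC1 summit 676 and 716 bases from the cDC2 site, which also had a summit in both KO cDC1 libraries. On the cDC1 side, Il12b had a WT cDC2 summit 688 bases from its site, and the Il1a site had a summit in neither KO cDC1 library. The Ccl17 site also had a summit in neither KO cDC1 library, but had a weak one in replicate 1 of KO cDC2 (rank 56948). Of the cDC1-only start sites 85.3% and 81.4% were open in the KO cDC1 libraries and 38.0% and 30.2% in KO cDC2, and of the cDC2-only ones 79.4% and 72.7% in KO cDC2 and 43.8% and 38.7% in KO cDC1. With all deposited summits 198 and 112 genes had start sites open in cDC1 only and in cDC2 only, the reverse order.

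The upstream 250 bases were compared between promoters classed by the WT summits in a window that also ran past the start site. At some, such as Gcsam and Tlr1, a library of the subset had its summit of the site outside that window. Median G and C content was 59.2% in 131 cDC1-only promoters, 58.4% in 160 cDC2-only promoters and 61.6% in 7292 shared ones, against 49.2% in 8929 with no WT summit. The median observed-to-expected ratio of CpG was 0.693, 0.533, 0.779 and 0.244 in the same order. The ETS-IRF composite, on either strand, was present in 6 cDC1-only promoters (4.58%), 0 cDC2-only promoters and 130 shared ones (1.78%). The RUNX motif TGTGGTT was present in 2 (1.53%), 10 (6.25%) and 218 (2.99%). For the IRF repeat, which is GAAA repeated after 2 bases, the shares were 3.05%, 1.88% and 2.54%, and for AP-1 (TGANTCA) 6.11%, 6.88% and 3.69%. The CCAAT box was present in 22.9%, 29.4% and 40.1%. Over all 17492 promoters the shares were 3.82% for RUNX, 3.05% for the IRF repeat, 6.21% for AP-1 and 36.4% for CCAAT. These shares rest on few promoters per class, the IRF repeat and the composite can overlap, and a match is a description of letters and not of binding.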

How the data were processed

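ATAC-seq was deposited as 1 summit list per library. Bowtie2, SAMtools, MACS2 and MultiQC were used with GRCm38 (mm10), per the submitters' processing notes; versions and settings are not given in the sources used here. Scores in the deposited lists were read as −log10 q-values from their minimum of 1.3 to 1.36 per library, and served only to rank summits. Members and gene lists were chosen with earlier results of these data known.

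In each library as many best summits as the shortest list held were assigned to the closest span among 21887 protein-coding genes of GRCm38.p6, up to 50 kb away. The 14068 genes averaging 1 summit or more over 8 libraries were fitted as log2(summits + 1) with limma 3.58.1 in R 4.3.3, with 4 group means. A rounding variance of 0.0833 squared summits was added at each gene's mean, a treatment that earlier work on these files settled on after seeing them. The start-site window of 500 bp was also chosen after seeing the data, as were 2 kinds of alternative: rounding variance per library and other start-site windows. The fit was tested on simulated data. Sites were chained within 250 bp. Start sites and promoters are RefSeq's, without chromosome 18. Named genes were the 12 of largest difference each way among called, non-overlapping genes, called list members (up to 4 per list other than the identity and transcription factor lists), 25 fixed genes and the 6 genes with most sites per subset. The loci described site by site, Flt3 and Dtx1 among them, and the list members named without a call were chosen after their values were seen. The 4 promoters printed, 3 cDC1-only and 1 cDC2-only, were picked from the first 4 per subset in an order with list genes first and then by rank. Lists held no read counts, so depth and its precision are unknown. Alternatives included list length, pseudocount, filter, variance treatment and left-out libraries.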

Additional observations from a re-analysis of the deposited data

How the results depend on the processing

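Of the 34 named genes called, 17 kept direction and call in every alternative in which they were tested, among them Cd8a, Scn11a, Cd2, Tmem132c, Chst9, Sh3gl3 and P3h2. The other 17 lost the call in at least 1, and 0 turned direction. Of the 31 not called, 7 passed in at least 1. Read depth is unknown, and 2 libraries per subset cannot reach p under 0.333 in a permutation test. Where a library was left out, its partner was taken to vary like the other groups. No cause of a change below was tested.

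The 522 genes called became 244 with a pseudocount of 0.5, 128 without the filter on low genes, 817 with the 4 WT libraries alone and 922 with the replicate block. Leaving out a WT library gave 546 to 633, with 343 higher and 218 lower without replicate 1 of WT cDC1, 366 and 226 without its replicate 2, 248 and 385 without replicate 1 of WT cDC2, and 194 and 352 without its replicate 2. The stricter rank limit called 642, of which 107 were among the 522, and without the rounding variance 202 of 639 were. Deviations of same-numbered WT libraries correlated at 0.0177 over genes (0.0288 in KO), and the labels tie no number to a mouse, so the numbers were not taken as a pairing. Genes whose subset difference differed between genotypes numbered 0, but 35 with the stricter rank limit, 299 without rounding variance, 300 with trend and robust variance, 38 with the replicate block and 14 to 38 without one WT library.

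With the stricter rank limit 5137 sites were cDC1-only and 4376 cDC2-only, and leaving out a library gave 12535 to 16355 and 10502 to 16250. The excess in the same KO subset was 45.6 to 54.2 points for cDC1-only and 32.3 to 43.8 for cDC2-only sites without one library. Start sites open in cDC1 only and in cDC2 only numbered 198 and 112 with all deposited summits. The share of summits outside genes differed by 0.0656 points, by -0.787 with all deposited summits, by -0.0283 without replicate 1 of WT cDC1 and by -0.204 to 0.335 over the libraries left out.

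Uncalled genes that turned direction, on the log2 scale, were Clec9a (-0.208), Itgam (-0.265), Esam (-0.029), Pde4d (-0.027), Arid1b (-0.191) and Foxp1 (-0.233) with all deposited summits, Itgae (-0.415), Irf4 (-0.208), Cd4 (-0.792) and Foxp1 (-0.22) with the stricter rank limit, and Zbtb46 (0.038) with spans widened by 5 kb. Leaving out one library gave -0.243 to 0.565 at Itgae, -0.145 to 0.315 at Itgam, -0.161 to 0.576 at Esam and -0.092 to 0.23 at Foxp1.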
